A study of Rattus norvegicus with 17 samples.

Results

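Of the 14506 genes with an annotated symbol on these arrays, 10 are markers of tissue macrophages. They were taken by name, each from the probe set annotated with that symbol alone, and fall into complement C1q subunits (C1qa, C1qb and C1qc), scavenger and lysosomal proteins (Cd163, Mrc1 and Cd68) and pan-myeloid genes (Csf1r, Aif1, Tyrobp and Cd14). Each had 1 probe set, and all 10 were tested without a filter on low values. The study measured 17 Affymetrix arrays of tissue labelled pituitary adenoma from 8-month-old Sprague-Dawley white eye/Wistar-Kyoto rats. Every sample, controls included, came from animals labelled with a mutation of p27Kip1 (Cdkn1b), a cyclin-dependent kinase inhibitor. The groups were 7 PEG controls labelled 20 mg/kg (5 female, 2 male), 6 samples with NVP-BEZ235 at 20 mg/kg (4 female, 2 male) and 4 with NVP-BEZ235 at 30 mg/kg (3 female, 1 male). NVP-BEZ235 inhibits phosphoinositide 3-kinase (PI3K) and mTOR. The sample labels call the mutation homozygous and the series design heterozygous, the length of treatment is not given in the sources used here, and the treatment protocol field names none.

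Macrophages live in nearly all tissues, where they take up dying cells, debris and haemoglobin and sense microbes. Their survival depends on the receptor CSF1R and its ligands CSF1 and IL34, and the myeloid transcription factor PU.1 acts at the promoters of many of their genes. Resident macrophages of many tissues are a main local source of C1q, the recognition molecule that starts the classical complement cascade, and adrenal tissue and its tumours hold such cells. C1qa, C1qb and C1qc encode the chains of C1q. CD163 takes up haemoglobin bound to haptoglobin, MRC1 (the mannose receptor) binds mannose-bearing glycoproteins, and CD68 is a glycoprotein of lysosomes. AIF1 (Iba1) binds actin and calcium, TYROBP (DAP12) is the signalling adaptor of TREM2 and related receptors, and CD14 presents lipopolysaccharide to TLR4.

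In the rat, C1qb, C1qc and C1qa are consecutive protein-coding genes on chromosome 5, between Ephb2 and Epha8. Sequences of the 250 bases before the start that RefSeq's promoter table uses were found for 7 of the 10 genes (build GRCr8). That start is not always the outer bound of the RefSeq gene: 227 bases of the Csf1r window, 23 of the Cd163 window and all 250 of the Cd14 window lie inside the gene's listed bounds, and none of the other 4. Shown are C1qa, the C1q gene that passed the test at 30 mg/kg, with its neighbour C1qb, and a pair of pan-myeloid genes whose 30 mg/kg differences had opposite signs. They are printed 5′ to 3′ on the gene's own strand, and capitals mark the PU box GAGGAA or TTCCTC, the same letters on the other strand. They are C1qa at chr5:154419934-154420183 (minus strand), C1qb at chr5:154407828-154408077 (minus strand), Csf1r at chr18:56834129-56834378 (plus strand) and Cd14 at chr18:28611159-28611408 (minus strand).
C1qa: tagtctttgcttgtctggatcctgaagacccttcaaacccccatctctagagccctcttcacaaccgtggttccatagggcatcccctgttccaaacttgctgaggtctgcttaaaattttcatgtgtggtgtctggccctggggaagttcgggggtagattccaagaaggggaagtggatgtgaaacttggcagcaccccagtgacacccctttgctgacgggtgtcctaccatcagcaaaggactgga
C1qb: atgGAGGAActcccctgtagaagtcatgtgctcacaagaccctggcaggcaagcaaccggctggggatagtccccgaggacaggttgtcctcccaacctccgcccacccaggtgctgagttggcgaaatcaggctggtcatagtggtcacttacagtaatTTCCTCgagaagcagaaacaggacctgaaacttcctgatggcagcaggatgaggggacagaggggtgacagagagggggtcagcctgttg
Csf1r: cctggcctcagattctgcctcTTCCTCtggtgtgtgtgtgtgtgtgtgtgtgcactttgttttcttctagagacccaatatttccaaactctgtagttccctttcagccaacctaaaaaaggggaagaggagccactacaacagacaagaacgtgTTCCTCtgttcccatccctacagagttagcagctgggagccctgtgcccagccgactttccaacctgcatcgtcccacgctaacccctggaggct
Cd14: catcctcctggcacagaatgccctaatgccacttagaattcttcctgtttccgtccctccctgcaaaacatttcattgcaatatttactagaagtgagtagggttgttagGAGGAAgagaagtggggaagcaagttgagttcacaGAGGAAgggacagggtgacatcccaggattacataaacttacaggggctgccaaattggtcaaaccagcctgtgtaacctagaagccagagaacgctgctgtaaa
The motif was searched on both strands, and its 2 forms do not overlap. Counted back from the start that the table uses, C1qb has 2 matches at 247 and 90 bases, Csf1r has 2 at 229 and 95 bases, and Cd14 has 2 at 140 and 105 bases. Both Cd14 matches and the Csf1r match at 95 bases lie inside the gene's listed bounds. C1qa and Cd163 have none in this window, Mrc1 has 2 and Cd68 has 1. A match was present in 5 of the 7 genes, and in 23.3% of 33469 rat promoter windows of the same length. A match is a description of letters and was not tested as a binding site.

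Expression is given as the deposited log2 value, on which a difference of 1 is a factor of 2. Values can be compared between arrays for a gene, and not between genes. The array medians over all probe sets lay between 4.95 and 5.11. Chromaffin markers (6 measured genes, such as Th and Dbh) had list means of 10.37 to 11.14 in controls, 10.53 to 11.47 at 20 mg/kg and 10.28 to 10.97 at 30 mg/kg. Adrenal cortex markers (8 genes) lay between 10.35 and 11.74 on all arrays. Pituitary hormone genes lay between 4.06 and 5.06 as a list mean, with each of the 7 below the median gene when averaged over all arrays. Prl alone averaged above it in 2 groups, with 6.16 ± 0.63 at 30 mg/kg and 6.15 ± 1.46 in controls (SD, n = 4 and 7), against gene medians of 5.67 to 5.87 per array. As lists, the defining markers of the labelled tissue were low while those of the adrenal gland, the origin of the pheochromocytoma that the series title names, were high. Sample titles number the controls 1 to 7, the 30 mg/kg arrays 1 to 4 and the 20 mg/kg arrays 5 to 10. What these numbers stand for is not given in the sources used here. Dose and number therefore go together except through the controls, which lie in both number ranges. Controls 1 to 5 were female and controls 6 and 7 male, so number and sex go partly together among the controls. Control means by number given below are not adjusted for sex. The arrays least like the others were replicates 3 and 4 at 30 mg/kg, with a median correlation across genes of 0.953 and 0.946 with the other arrays, against 0.957 to 0.978 for the rest.

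The marker genes did not move as 1 block. Aif1, C1qa, Csf1r and Tyrobp were lower at 30 mg/kg than in controls past the threshold of adjusted p 0.05 (limma), by factors of 1.58 to 3.21, while Cd14 averaged higher and Mrc1 about level without passing it. No marker passed the threshold at 20 mg/kg, where Aif1 and Tyrobp averaged lower and Cd163 and Mrc1 higher than controls. From high to low, group means ran control, 20 mg/kg, 30 mg/kg for 4 genes (Aif1, C1qc, Csf1r and Tyrobp). They were highest at 20 mg/kg for C1qa, C1qb, Cd163 and Mrc1, and the 30 mg/kg mean was lowest in 7 of the 10. Bulk RNA cannot tell fewer macrophages from less of these transcripts per cell.

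**Figure D1:**
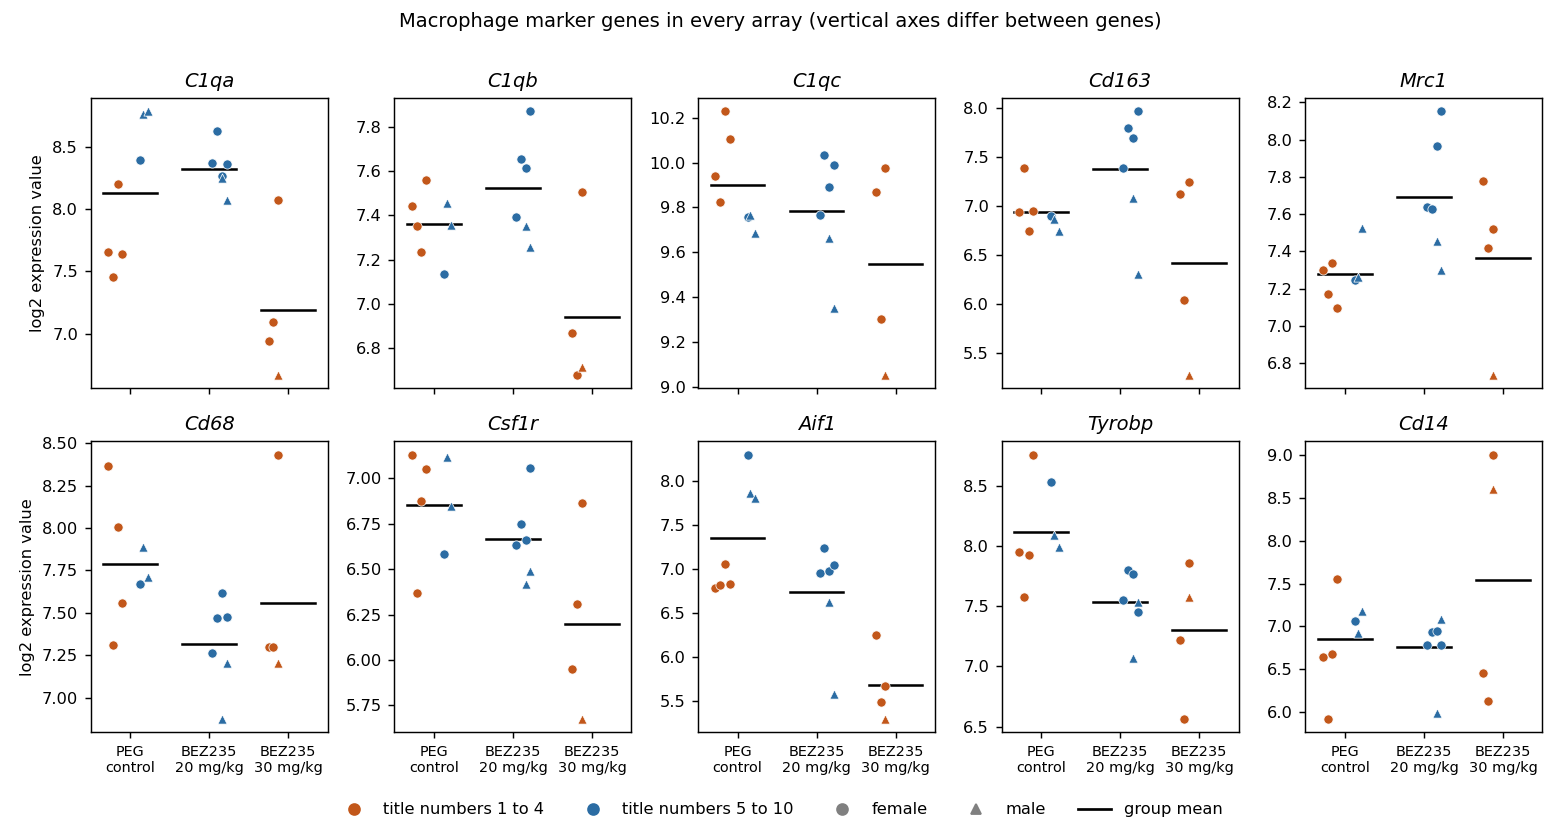
Deposited log2 expression value (vertical axis, a separate range for each gene) of the 10 macrophage marker genes on each of 17 arrays, by treatment (horizontal axis: PEG control, 20 and 30 mg/kg NVP-BEZ235). Points are arrays, orange for title numbers 1 to 4 and blue for 5 to 10, circles female and triangles male, and lines are group means; all 4 Aif1 values at 30 mg/kg lie below the lowest control, and Cd14 at 30 mg/kg splits into a pair above 8.5 and a pair below 6.5.

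The pan-myeloid gene Aif1 had the largest difference from controls of the 10. Its log2 values ran from 6.79 to 8.30 with a median of 7.06 in the 7 controls, from 5.58 to 7.24 with a median of 6.96 in the 6 arrays at 20 mg/kg, and were 6.25, 5.48, 5.67 and 5.29 in replicates 1 to 4 at 30 mg/kg. All 4 values at 30 mg/kg were below every control, a state that 3.76% of all genes showed in either direction. Aif1 was 3.21-fold lower at 30 mg/kg than in controls (log2 difference -1.68 ± 0.33, SE, adjusted p = 0.00518 by limma) and 2.11-fold lower than at 20 mg/kg (-1.08 ± 0.34, adjusted p = 0.0483). Its difference at 20 mg/kg was -0.61 ± 0.29 (adjusted p = 0.299).

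The Aif1 controls themselves divided by title number. They averaged 7.99 ± 0.27 in numbers 5 to 7 and 6.87 ± 0.13 in numbers 1 to 4 (SD, n = 3 and 4), with no overlap, as in 21.4% of all genes in either direction. In a fit with the number range as a term, numbers 5 to 10 were 1.59 ± 0.25 higher for Aif1 at equal treatment and sex (limma, adjusted p = 0.00667), and 3.61% of all genes passed that test, with no other marker among them. Set against the controls of its own numbers, Aif1 was 2.86-fold lower at 20 mg/kg (-1.52 ± 0.21, adjusted p = 0.0117). Its difference there at 30 mg/kg was -1.07 ± 0.20 (adjusted p = 0.124). The 20 mg/kg arrays did not overlap controls 5 to 7, nor the 30 mg/kg arrays controls 1 to 4. With the number range as a term in the fit of all arrays, Aif1 was lower at both doses, by 1.49 ± 0.21 on the log2 scale at 20 mg/kg (adjusted p = 0.00446) and by 1.02 ± 0.21 at 30 mg/kg (adjusted p = 0.0167). The order of the doses changed sign in that fit, with a 30 minus 20 mg/kg difference of 0.47 (adjusted p = 0.805). No gene passed between the doses there.

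Tyrobp, the adaptor gene, averaged lower at both doses, also when title numbers were taken into account. It ran from 7.58 to 8.76 with a median of 8.00 in controls, from 7.07 to 7.80 with a median of 7.55 at 20 mg/kg, and was 7.22, 6.56, 7.86 and 7.58 in replicates 1 to 4 at 30 mg/kg. Only replicate 3 at 30 mg/kg lay above the 20 mg/kg maximum, and the treated ranges overlapped the lower part of the control range. The difference at 30 mg/kg was -0.82 ± 0.24 (limma, adjusted p = 0.0388), a 1.77-fold lower level. At 20 mg/kg it was -0.58 ± 0.21 (adjusted p = 0.163). Against controls 5 to 7, which the 20 mg/kg arrays did not overlap, it was -0.81 ± 0.135 (adjusted p = 0.0202), and against controls 1 to 4 at 30 mg/kg it was -0.84 ± 0.35 (adjusted p = 0.506). With the number range as a term Tyrobp passed at neither dose. Its difference was then -0.74 ± 0.28 at 20 mg/kg (limma, adjusted p = 0.369) and -0.70 ± 0.27 at 30 mg/kg (adjusted p = 0.179).

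Csf1r, the receptor on which macrophages depend, ran from 6.37 to 7.13 with a median of 6.88 in controls and from 6.42 to 7.06 with a median of 6.65 at 20 mg/kg. At 30 mg/kg its values were 5.95, 6.31, 6.86 and 5.68, so 3 of 4 arrays lay below the lowest control and replicate 3 near the control median. The gene was 1.58-fold lower at 30 mg/kg (-0.66 ± 0.19, limma, adjusted p = 0.0413), with -0.18 ± 0.17 at 20 mg/kg (adjusted p = 0.637). Its controls showed no step between title numbers, with means of 6.85 ± 0.27 in numbers 5 to 7 and 6.86 ± 0.34 in numbers 1 to 4 (SD). Within numbers 1 to 4 the 30 mg/kg difference was -0.48 ± 0.26 (adjusted p = 0.631).

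Cd14 was the gene with the widest spread at 30 mg/kg. Its values there were 6.45, 6.13, 9.01 and 8.60 in replicates 1 to 4, against 5.92 to 7.56 with a median of 6.92 in controls and 5.99 to 7.09 with a median of 6.86 at 20 mg/kg. Replicates 3 and 4 stood above all other arrays and replicates 1 and 2 in the lower part of the control range. The mean difference of 0.71 ± 0.45 from controls did not pass (limma, adjusted p = 0.366), and without replicates 3 and 4 it was -0.56 (adjusted p = 0.503). The 30 minus 20 mg/kg difference of 0.82 ± 0.46 (adjusted p = 0.254) likewise changed sign without them, to -0.47 (adjusted p = 0.526).

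In the same 2 arrays S100a8, S100a9 and Ccl3 were also high. S100a8, which encodes a calcium-binding protein of neutrophils and monocytes, was 8.22 and 7.03 in replicates 3 and 4 at 30 mg/kg, with 4.46 and 4.09 in replicates 1 and 2, 4.22 to 6.47 at 20 mg/kg and 3.97 to 4.96 in controls. S100a9, its partner, was 8.62 and 6.99 in those arrays, with 4.92 and 4.81 in replicates 1 and 2, 4.57 to 6.35 at 20 mg/kg and 4.07 to 5.66 in controls. The chemokine gene Ccl3 was 8.96 and 8.86, with 6.51 and 5.16 in replicates 1 and 2, 5.16 to 5.72 at 20 mg/kg and 3.81 to 5.56 in controls. The monocyte and neutrophil list averaged 4.22 to 5.23 at 30 mg/kg and 4.17 to 4.47 in controls, and each of the 9 measured genes was below the median gene when averaged over all arrays. Above it at 30 mg/kg, through those 2 arrays, were the means of S100a9 (6.33 ± 1.82) and S100a8 (5.95 ± 2.001, SD, n = 4). The other genes of the list were mixed, and 3 of the 9 had a 30 mg/kg difference from controls below 0. Fcnb averaged 5.05 at 30 mg/kg against 5.27 in controls, Elane 4.21 against 4.38 and Mpo 4.11 against 4.15. Csf3r averaged higher, at 4.55 against 4.26. Cxcr2 ran from 3.77 to 4.84 at 30 mg/kg (SD 0.58), against 3.76 to 4.30 in controls. No gene of that list passed the threshold against controls at either dose. Between the doses 1 of the 9 was higher at 30 mg/kg past it, where 12.1% of all genes passed. With the number range as a term none passed between the doses. The part of S100a8, S100a9 and Ccl3 in the Cd14 values was not tested.

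The C1q genes were lowest at 30 mg/kg and close to controls or above them at 20 mg/kg. C1qa ran from 7.45 to 8.79 with a median of 8.20 in controls and from 8.08 to 8.63 with a median of 8.32 at 20 mg/kg, and was 6.94, 7.09, 8.07 and 6.66 at 30 mg/kg. All 4 of those values were below every 20 mg/kg value, as 12.6% of all genes showed in either direction, and replicate 3 only just so. C1qa was 2.18-fold lower at 30 than at 20 mg/kg (-1.12 ± 0.28, limma, adjusted p = 0.0191) and 1.91-fold lower than in controls (-0.93 ± 0.28, adjusted p = 0.0433). With the number range as a term, the difference between the doses was -0.09 (adjusted p = 0.972), and with the replicate block it was -0.17 (adjusted p = 0.999). No gene passed between the doses in either of these fits. The difference at 20 mg/kg was 0.19 ± 0.25 (adjusted p = 0.728).

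C1qa shared the step between title numbers seen for Aif1, with control means of 8.65 ± 0.22 in numbers 5 to 7 and 7.74 ± 0.32 in numbers 1 to 4 (SD). The step at equal treatment and sex was 1.06 ± 0.29 (limma, adjusted p = 0.0517). Against the controls of its own numbers, the 30 mg/kg difference was -0.37 ± 0.30 (adjusted p = 0.775), and the 20 mg/kg difference turned to -0.34 ± 0.15 (adjusted p = 0.281). The same step was 0.04 ± 0.21 for C1qb (adjusted p = 0.942) and -0.03 ± 0.19 for C1qc (adjusted p = 0.943). The C1qc controls nonetheless did not overlap by number, as in 21.4% of all genes in either direction, with the order opposite to C1qa. Their means were 9.74 ± 0.04 in numbers 5 to 7 and 10.02 ± 0.18 in numbers 1 to 4 (SD). These means are not adjusted for sex, and C1qc averaged 0.40 lower in males than in females in the fit of all arrays.

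C1qb ran from 7.13 to 7.56 with a median of 7.36 in controls and from 7.26 to 7.87 with a median of 7.50 at 20 mg/kg. At 30 mg/kg it was 6.87, 6.68, 7.50 and 6.72, with 3 arrays below all controls and replicate 3 among the highest controls. It was lower at 30 than at 20 mg/kg past the threshold (-0.60 ± 0.15, limma, adjusted p = 0.0207). With the number range as a term that difference was -0.56 (adjusted p = 0.724), in a fit where no gene passed between the doses. From controls the difference was -0.43 ± 0.15 (adjusted p = 0.0848). Without replicate 3 at 30 mg/kg the difference from controls was -0.60 (adjusted p = 0.0171). C1qc ran from 9.69 to 10.23 with a median of 9.82 in controls and from 9.35 to 10.03 with a median of 9.83 at 20 mg/kg. At 30 mg/kg it was 9.87, 9.30, 9.97 and 9.05, with replicates 1 and 3 inside the control range and replicates 2 and 4 below it. Its differences of -0.37 ± 0.14 at 30 mg/kg (adjusted p = 0.107) and -0.10 ± 0.12 at 20 mg/kg (adjusted p = 0.713) did not pass.

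Among the scavenger receptors, Cd163 passed the test between the doses and not against controls. With the number range as a term or the replicate block the dose call was lost, as were those of all other genes. Cd163 ran from 6.74 to 7.39 with a median of 6.90 in controls and from 6.31 to 7.97 with a median of 7.54 at 20 mg/kg. It was 7.12, 6.04, 7.24 and 5.27 at 30 mg/kg. Replicates 1 and 3 lay in the control range and replicates 2 and 4 below all controls. Cd163 was 2.03-fold lower at 30 than at 20 mg/kg (-1.02 ± 0.26, limma, adjusted p = 0.0213), with 0.48 ± 0.23 at 20 mg/kg (adjusted p = 0.288) and -0.54 ± 0.26 at 30 mg/kg (adjusted p = 0.206) against controls. The dose difference was -0.58 with the number range as a term (adjusted p = 0.839) and -0.475 with the replicate block (adjusted p = 0.999). The lowest values at both doses were from male samples. In controls Cd163 averaged 6.80 ± 0.09 in males and 6.98 ± 0.24 in females (SD, n = 2 and 5). The male minus female difference in the fit of all arrays was -0.79 ± 0.22 (limma, adjusted p = 0.079). For C1qc that difference was -0.40 ± 0.12 (adjusted p = 0.0967). No marker passed the sex comparison, in which 0.958% of all genes did.

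Mrc1 ran from 7.10 to 7.53 with a median of 7.26 in controls and from 7.30 to 8.15 with a median of 7.63 at 20 mg/kg, and was 7.78, 7.42, 7.52 and 6.74 at 30 mg/kg. In 4 of the 6 arrays at 20 mg/kg it was above every control, and replicate 4 at 30 mg/kg was below all of them. Its difference was 0.43 ± 0.14 at 20 mg/kg (limma, adjusted p = 0.137) and 0.08 ± 0.16 at 30 mg/kg (adjusted p = 0.837). The 95% interval at 30 mg/kg ran from -0.27 to 0.42.

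Cd68 ran from 7.31 to 8.37 with a median of 7.71 in controls and from 6.88 to 7.62 with a median of 7.37 at 20 mg/kg, and was 7.30, 7.30, 8.43 and 7.20 at 30 mg/kg. Replicate 3 at 30 mg/kg was the highest of all 17 arrays, while the other 3 lay just below the control range. Its differences were -0.46 ± 0.19 at 20 mg/kg (limma, adjusted p = 0.233) and -0.24 ± 0.22 at 30 mg/kg (adjusted p = 0.564). The 20 mg/kg arrays were all below controls 5 to 7 (-0.52 ± 0.15, adjusted p = 0.12).

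**Figure D2:**
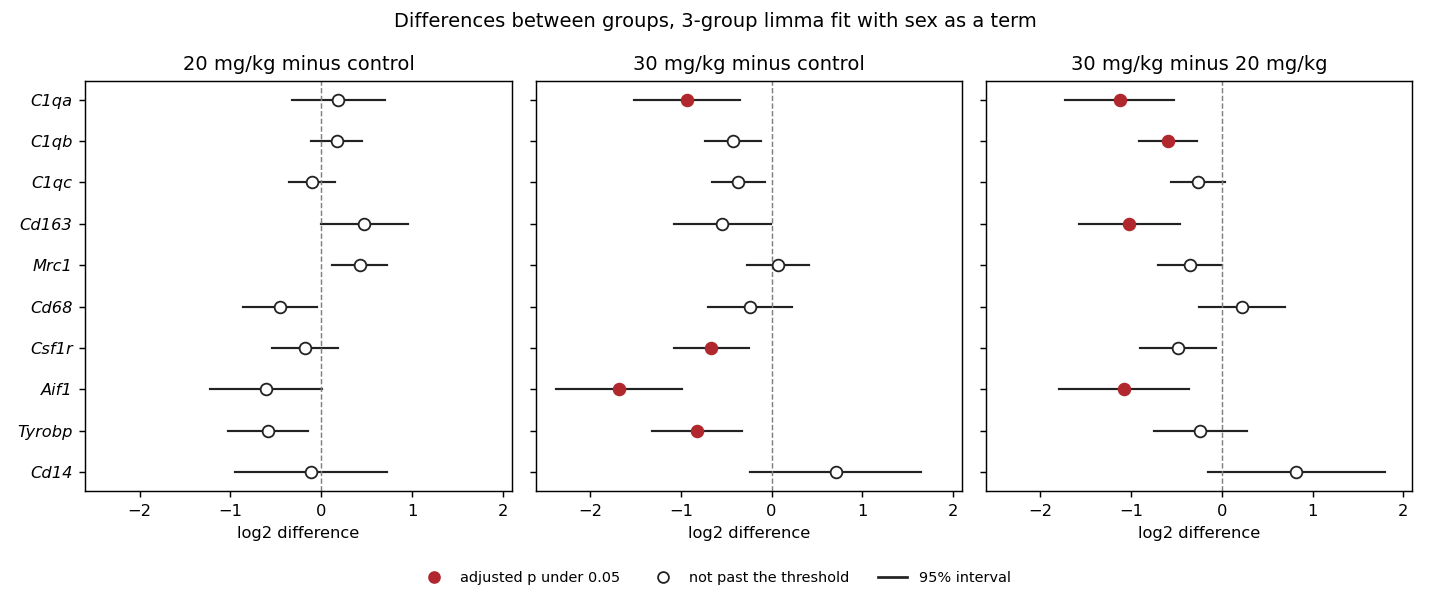
Log2 difference of each marker gene (horizontal axis) for 20 mg/kg minus control, 30 mg/kg minus control and 30 minus 20 mg/kg, from the 3-group limma fit with sex as a term. Points are estimates, bars 95% intervals, and filled points have adjusted p under 0.05: none at 20 mg/kg, Aif1, C1qa, Csf1r and Tyrobp at 30 mg/kg, and C1qa, C1qb, Cd163 and Aif1 between the doses.

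Counted together, 4 of the 10 markers passed the test at 30 mg/kg against controls, all lower, where 8.55% of all genes passed. Their median difference was -0.48, beside 0.01 over all genes, and 8 of the 10 were below 0, beside 48% of all genes. Between the doses 4 of 10 passed, all lower at 30 mg/kg, where 12.1% of all genes passed, with a median of -0.42 beside 0.03. At 20 mg/kg 0 of 10 passed by limma, where 1.18% of all genes did, and 3 had an unadjusted p under 0.05. The median there was -0.11 beside -0.01. With both doses together against controls 0 passed, where 1.48% of all genes did, and 4 had an unadjusted p under 0.05, led by Tyrobp at -0.68 ± 0.19 (adjusted p = 0.083) and Aif1 at -1.04 ± 0.32 (adjusted p = 0.121). The comparisons share the control or treated arrays and are not independent of each other.

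Taking title numbers into account reduced the number of calls at 30 mg/kg. With the number range as a term, Aif1 alone passed at 20 mg/kg, where 0.358% of all genes did, and at 30 mg/kg, where 3.01% did. Between the doses no marker and no other gene passed in that fit, in which the dose difference is estimated only through the controls. Within numbers 5 to 10, Aif1 and Tyrobp passed at 20 mg/kg, beside 1.19% of all genes. Within numbers 1 to 4 no marker passed at 30 mg/kg, beside 0.11% of all genes, in a fit where the sex term takes up the male replicate 4. Without the sex term Aif1 passed there (-1.20, adjusted p = 0.0447). Counted by overlap, Aif1, Cd68 and Tyrobp were lower in every 20 mg/kg array than in controls 5 to 7, and 6.11% of all genes did not overlap in that comparison. At 30 mg/kg Aif1 alone did not overlap controls 1 to 4, beside 6.98% of all genes.

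**Figure D3:**
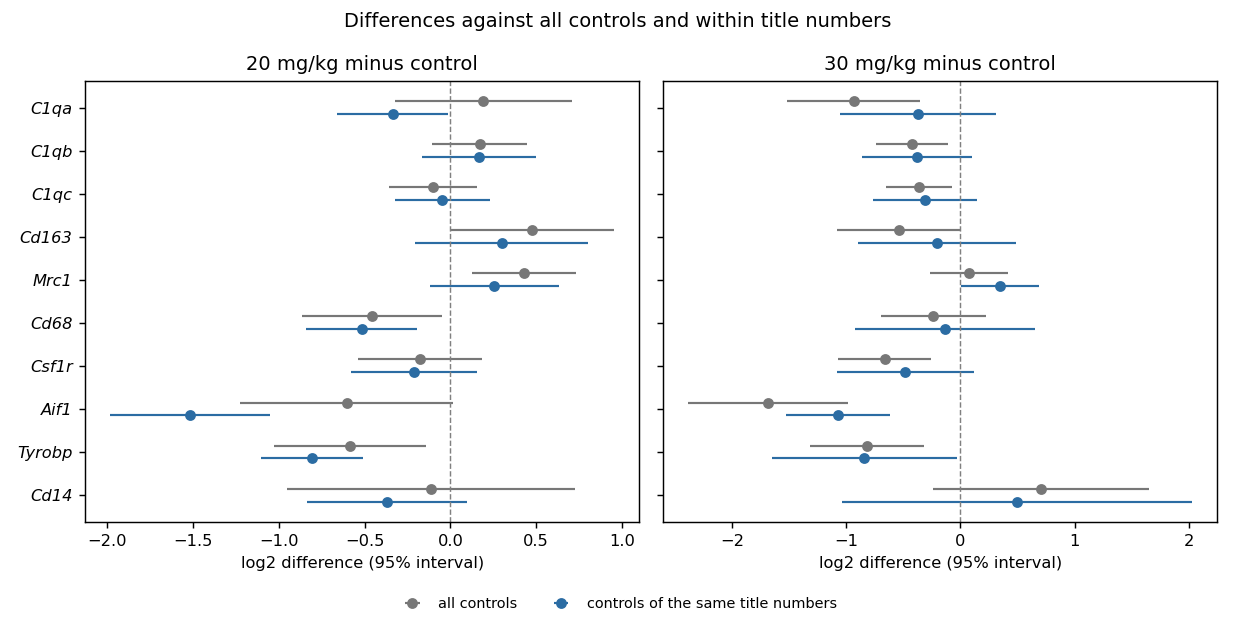
Log2 difference from control (horizontal axis, with 95% intervals) of each marker gene at 20 mg/kg and at 30 mg/kg. Grey points use all 7 controls and blue points the controls of the same title numbers (5 to 7 for 20 mg/kg, 1 to 4 for 30 mg/kg); Aif1 moves to -1.52 at 20 mg/kg and to -1.07 at 30 mg/kg, while Tyrobp stays between -0.58 and -0.84.

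Of the 4 calls at 30 mg/kg, those other than Aif1 depended on single arrays. Across 17 fits that each left out 1 array, the Aif1 difference from controls passed in 17, with log2 differences from -1.86 to -1.53. Tyrobp passed in 9, C1qa in 5 and Csf1r in 5, with every estimate below 0 and between -1.24 and -0.50. Between the doses C1qa passed in 16 of 17, C1qb and Cd163 in 14 each, and Aif1 in 8. Without replicate 4 at 30 mg/kg none of the markers passed between the doses. Without replicates 3 and 4 together, Tyrobp alone passed at 30 mg/kg (-1.29, adjusted p = 0.03), and Aif1 (-1.52, adjusted p = 0.119), C1qa and Csf1r did not.

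Within groups most pairs of markers varied together, some closely and others little. Over the 17 arrays, with group means removed, the 45 pairs had a median Pearson r of 0.41, with 41 pairs above 0. Tyrobp and Cd14 had the highest, 0.845, followed by C1qc and Cd163 at 0.833, Cd68 and Csf1r at 0.795, and C1qb and Csf1r at 0.772. Mrc1 and Cd14 had the lowest, -0.252. The adjoining C1q genes ranged from 0.685 for C1qb and C1qc to 0.397 for C1qa and C1qb and 0.243 for C1qa and C1qc. With the means of the number ranges removed too, those C1qa pairs stood at 0.651 and 0.7, while Aif1 and C1qa stood at 0.25, against 0.594 without that step. Aif1 with C1qc stood at 0.758, against 0.282 without it, and Aif1 with Cd163 at 0.76, against 0.488. The points share arrays, and replicates 3 and 4 at 30 mg/kg weigh on the pairs that include Cd14. Sex means were not removed. The male minus female difference was -0.79 for Cd163, -0.40 for C1qc and -0.29 for Mrc1, and its part in their pairs was not tested. No r over other pairs of genes is given for comparison.

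**Figure D4:**
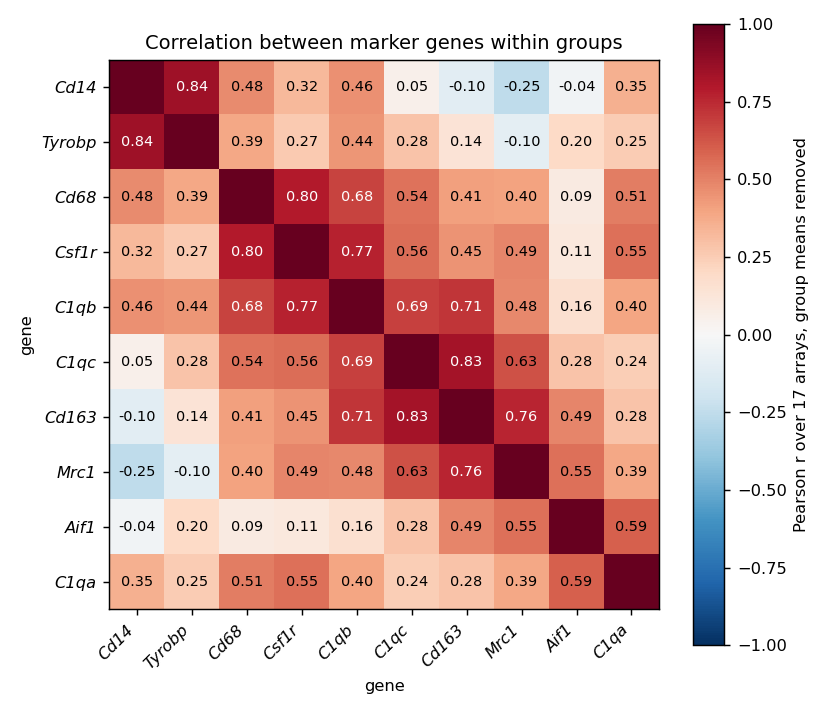
Pearson r between each pair of marker genes over 17 arrays after group means were removed (colour scale from -1 to 1, values printed in the cells, genes on both axes ordered by hand). High values join Cd14 with Tyrobp, Cd68 with Csf1r and C1qb, and C1qc with Cd163 and Mrc1, while Aif1 and C1qa each have their highest value with the other (0.594), a pair at 0.25 once the means of the number ranges are removed.

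Over all genes, the 3 most alike in the same measure were other myeloid genes for some markers and not for others. C1qb was closest to Lyz2, the lysozyme of macrophages, at r = 0.885, to the C-type lectin gene Clec4d at 0.867 and to Acer1 at 0.797. C1qc was closest to Gpr137 (0.864), then to RT1-DMa (0.836), a class II antigen-loading gene, and to Cd163. The genes closest to Tyrobp were Lgals3 (0.872), which encodes galectin-3, Cd14 and Polr2c (0.84). Cd68 was closest to Etfbkmt (0.863) and the complement receptor gene C3ar1 (0.808), and Cd14 to Clic1 (0.891), Ttc9 (0.889) and the interleukin-1 receptor gene Il1r1 (0.881). Aif1 was closest to Lrrn3 (0.929) and C1qa to Sdf2l1 (0.908). For Csf1r the closest were Tmub1 (0.848), Tmem101 (0.811) and Pon2 (0.797), and for Mrc1 Hsd17b11 (0.839), Zmynd8 (0.824) and Mgp (0.793). Cd163 was closest to Mup5 (0.839), then to C1qc and Zmynd8 (0.821). These are the highest of many correlations over 17 arrays.

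Other genes of macrophages and leukocytes, 25 measured of 28 listed, were also mostly lower at 30 mg/kg. Of these 10 were lower past the threshold and 1 was higher, where 8.55% of all genes passed, with a median difference of -0.42 beside 0.01 over all genes. The lower ones were Cd74, the class II invariant chain (-2.20 ± 0.31, limma, adjusted p = 0.000596), Ptprc, the pan-leukocyte phosphatase CD45 (-1.41 ± 0.20, adjusted p = 0.000524), P2ry12, Mpeg1, Ms4a7, Fcgr3a, Cx3cr1, Folr2, Ctss and Siglec1. The resident macrophage genes Vsig4 (-0.42 ± 0.22, adjusted p = 0.244) and Adgre1 (-0.23 ± 0.21, adjusted p = 0.577) did not pass. Fcgr2b, the inhibitory Fc receptor, was higher by 2.01 ± 0.35 (adjusted p = 0.00248), with values of 4.95, 5.16, 6.98 and 7.33 at 30 mg/kg that were highest in replicates 3 and 4, against 3.87 to 4.49 in controls.

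At 20 mg/kg 2 genes of that list passed, where 1.18% of all genes did, both lower: Ptprc (-1.15 ± 0.17, limma, adjusted p = 0.00681) and the fractalkine receptor gene Cx3cr1 (-0.91 ± 0.19, adjusted p = 0.0285). Ptprc ran from 6.12 to 6.72 in controls, from 4.82 to 5.73 at 20 mg/kg and from 4.67 to 5.51 at 30 mg/kg. It was lower within numbers 5 to 10 at 20 mg/kg (-1.34 ± 0.21, adjusted p = 0.0173) and within numbers 1 to 4 at 30 mg/kg (-1.49 ± 0.17, adjusted p = 0.0241). When replicates 3 and 4 of the higher dose were left out, 2 of the 25 genes (Ptprc and Cd74) were lower past the threshold, where 1.07% of all genes passed, and 22 were below 0. Fcgr2b was then higher by 0.995 ± 0.262 and did not pass (limma, adjusted p = 0.0813). With the number range as a term, 2 were lower (Ptprc and Cd74) and 1 higher (Fcgr2b) at 30 mg/kg, where 3.01% of all genes passed, and 3 were lower (Ptprc, Fcgr3a and Ms4a7) at 20 mg/kg, where 0.358% did.

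**Figure D5:**
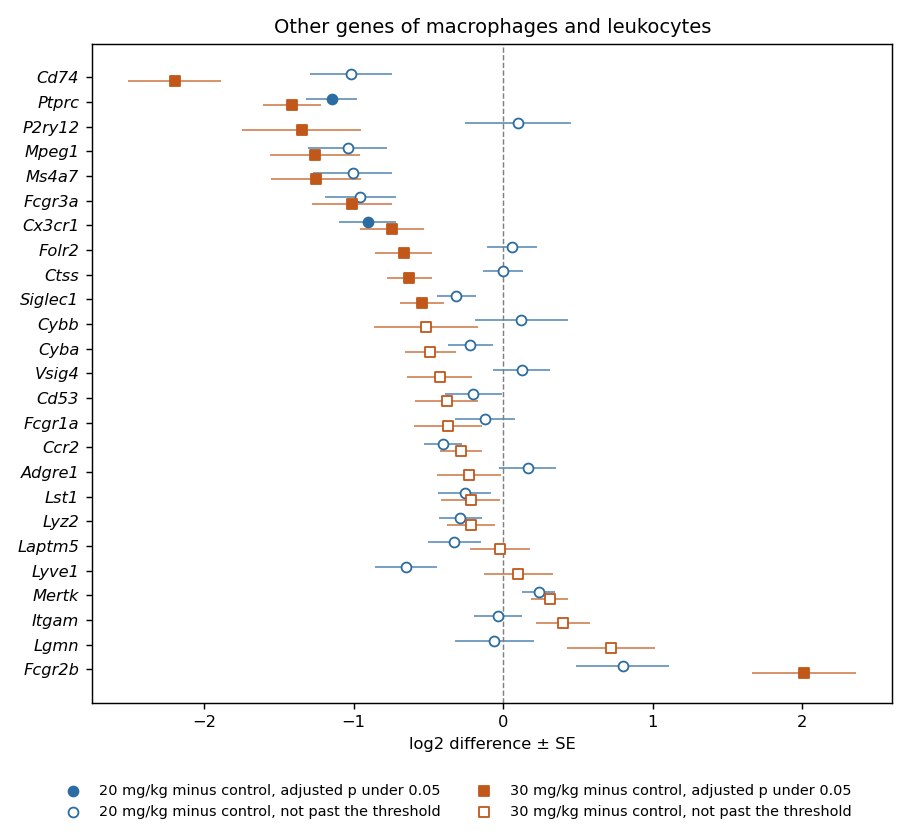
Log2 difference from control (horizontal axis, estimate ± SE) of 25 other genes of macrophages and leukocytes at 20 mg/kg (blue circles) and 30 mg/kg (orange squares), sorted by the 30 mg/kg difference, with filled points at adjusted p under 0.05. At 30 mg/kg 10 genes are lower, from -0.54 to -2.20, and Fcgr2b is higher at 2.01.

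Over 5 lists of pathway partners of the markers, 7 of 54 measured genes passed at 30 mg/kg (3 lower and 4 higher), which is 13% beside 8.55% of all genes, with a median difference of -0.10. At 20 mg/kg 1 passed, beside 1.18% of all genes. Of 9 measured complement genes beyond C1q, receptor genes included, 0 passed at 30 mg/kg. C1r, the first protease of the classical cascade, was lower at 20 mg/kg (-1.07 ± 0.20, limma, adjusted p = 0.0219). Of 12 partners of TYROBP, Hcst, the related adaptor DAP10, was lower at 30 mg/kg (-1.34 ± 0.31, adjusted p = 0.013) and the receptor gene Trem1 higher (0.43 ± 0.12, adjusted p = 0.039). Of 11 CSF1R ligands and myeloid factors, the ligand gene Il34 was lower at 30 mg/kg (-0.67 ± 0.17, adjusted p = 0.019) and the cytokine receptor gene Csf2rb higher (1.06 ± 0.32, adjusted p = 0.0465). The other ligand gene, Csf1, gave -0.36 ± 0.21 (adjusted p = 0.304), and Spi1, which encodes PU.1, gave -0.33 ± 0.23 (adjusted p = 0.412).

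Around CD14, 12 genes of Toll-like receptor signalling and of cytokines and chemokines were measured. Of them Ccl3 was higher at 30 mg/kg (2.77 ± 0.53, limma, adjusted p = 0.00451) and the RNA sensor gene Tlr7 lower (-0.94 ± 0.28, adjusted p = 0.0443). Tlr4 itself gave -0.07 ± 0.20 (adjusted p = 0.888). Of 10 other scavenger and endocytic receptor genes, Cd36, a fatty acid and lipoprotein receptor also found on endothelium and adipocytes, was higher at 30 mg/kg (1.46 ± 0.25, adjusted p = 0.00219). No gene of the TYROBP, CSF1R, CD14 or scavenger lists passed at 20 mg/kg.

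Few of these calls remained in the other fits. With the number range as a term, 2 of the 54 passed at 30 mg/kg, Ccl3 (2.67 ± 0.625, limma, adjusted p = 0.0307) and Cd36 (1.39 ± 0.29, adjusted p = 0.0187), and C1r did not pass at 20 mg/kg (-1.01 ± 0.275, adjusted p = 0.168). Without replicates 3 and 4 at 30 mg/kg none of the 7 passed, and 1 other gene did, Fcer1g, an adaptor gene related to TYROBP (-1.23 ± 0.21, adjusted p = 0.0154). Ccl3 was then 1.28 ± 0.41 higher (adjusted p = 0.148) and Csf2rb 0.15 ± 0.22 higher (adjusted p = 0.826), while Cd36 kept its size (1.465 ± 0.341, adjusted p = 0.0537).

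Markers of some other cell types differed in the same comparisons, and those of others did not. Of all genes, 8.55% passed against controls at 30 mg/kg and 1.18% at 20 mg/kg. Erythroid genes averaged 6.34 to 7.64 in controls, 5.22 to 6.26 at 20 mg/kg and 4.88 to 6.31 at 30 mg/kg over 4 measured genes, and Hbb, a haemoglobin chain of red blood cells, was lower by 3.51 ± 0.50 on the log2 scale at 30 mg/kg (limma, adjusted p = 0.000669). Without replicates 3 and 4 the Hbb difference was -4.40 ± 0.51 (adjusted p = 0.000583), and with the number range as a term it was -3.59 ± 0.60 (adjusted p = 0.0068). Lymphocyte genes averaged 4.16 to 4.56 in controls, 3.98 to 4.10 at 20 mg/kg and 3.98 to 4.08 at 30 mg/kg, with each of the 10 measured genes below the median gene when averaged over all arrays. Of them the T cell genes Cd2 and Cd3d were lower at 30 mg/kg and Cd2 at 20 mg/kg. Endothelial genes averaged 7.12 to 7.75 in controls, 7.41 to 7.69 at 20 mg/kg and 7.84 to 8.05 at 30 mg/kg, and 4 of 11 (Flt1, Eng, Cdh5 and Emcn) were higher at 30 mg/kg. Fibroblast genes overlapped between groups, with Col3a1 lower at both doses, Col1a1 lower at 20 mg/kg and Pdgfra higher at 30 mg/kg among 10. None of 7 dendritic cell, 6 mast cell and 6 chromaffin genes passed at either dose, nor did any pituitary hormone gene, and of 8 adrenal cortex genes Mc2r was lower at 20 mg/kg (-1.47 ± 0.26, adjusted p = 0.0167). Without replicates 3 and 4 no lymphocyte, endothelial or fibroblast gene passed at 30 mg/kg, where 1.07% of all genes did. With the number range as a term Flt1, Eng, Col3a1 and Pdgfra passed at 30 mg/kg, where 3.01% of all genes did. At 20 mg/kg with the number range as a term, where 0.358% of all genes passed, no adrenal cortex or fibroblast gene did. Of the lymphocyte genes Cd3g and Nkg7 were lower past the threshold in that fit, and Cd2 did not pass. The part of blood, lymphocytes or vessel content in the macrophage marker values was not tested.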

How the data were processed

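Values were measured on 17 Affymetrix arrays, from amplified and biotin-labelled total RNA per the labels' protocols. The authors deposited log2 values, and RMA and Affymetrix Expression Console 1.3.0.187 are named in the submitters' processing notes. They were used as deposited. Of 29214 probe sets, 15310 had 1 annotated symbol, 323 had several and 13581 were not listed and stay unnamed. The probe set with the highest mean was kept for each symbol, which gave 14506 genes. The probe sets of the 10 markers are listed under 1 symbol each.

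Linear models were fitted in R 4.3.3 by limma 3.58.1 (two-sided, checked on simulated data), with 3 groups and sex, or treated against control and sex. Benjamini-Hochberg adjustment ran over 14506 genes, with a threshold of 0.05. The labels do not state that samples are separate animals, so the p-values cover only differences between samples. The number of arrays limits the precision. Members and gene lists were chosen with earlier results of these data known. Genes outside the members are named where they passed at either dose or in another fit, had small p-values in their list, or correlated most with a marker. Csf1, Spi1, Tlr4, Vsig4 and Adgre1 are named for their role, and Th, Dbh and Prl to describe the tissue. Fcnb, Elane, Mpo, Csf3r and Cxcr2 are named for the direction or spread of their values. Same-numbered arrays of different groups did not deviate together once group means were removed (r from -0.183 to 0.085 over 7 pairs). Sex and the number range were left in, so this check cannot settle whether the arrays form pairs. The fits within a number range without sex and without replicates 3 and 4 at 30 mg/kg were chosen after seeing the data, as was the number term for genes outside the members. Other alternatives are in the closing section.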

Additional observations from a re-analysis of the deposited data

Results flagged for a closer look

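In 4 of 30 sets of values (10 genes in 3 groups), 1 array stood apart from its group by Dixon's criterion, which chance meets in about 1 in 20 sets. Cd68 was 8.43 in replicate 3 at 30 mg/kg, where the next value was 7.30. Aif1 was 5.58 in replicate 10 at 20 mg/kg, below the next at 6.62. Cd14 was 5.99 in replicate 9 at 20 mg/kg, below the next at 6.78. Cd163 was 7.39 in control replicate 2, above the next at 6.94.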

How the results depend on the processing

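The Aif1 difference at 30 mg/kg stayed below 0 in every fit and kept its call in every leave-one-out fit, with the number range as a term, and in females only (-1.36, adjusted p = 0.0463). It lost the call with the replicate block (-1.06, adjusted p = 0.0624), within 1 number range with sex, and without replicates 3 and 4. At 30 mg/kg against controls, where 4 of the 10 markers passed, 0 passed with the replicate block and within 1 number range, 1 with the number range as a term, within a range without sex, without replicates 3 and 4, in females only and at a threshold of 0.01, and 2 with array weights. Leaving out 1 array gave 1 to 5. Between the doses, where 4 passed, 0 passed with the replicate block, the number range as a term, without replicates 3 and 4, in females only and at 0.01, and 2 without sex and after quantile normalization, with 0 to 4 on leaving out 1 array. At 20 mg/kg, where 0 passed, the number range as a term gave 1 and 1 range alone gave 2, and no other setting gave any. For both doses together, where 0 passed, the replicate block and the number range as a term gave 2, and array weights and a threshold of 0.10 gave 1.

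The replicate block made Aif1 (-1.14, adjusted p = 0.0148) and Tyrobp (-0.71, adjusted p = 0.0376) pass for both doses together. Whether same-numbered arrays form pairs is not settled here. The arrays numbered 8 to 10, which have no counterpart, carry no information in the fit with the replicate block. Over all genes, calls at 30 mg/kg numbered 1240, against 72 with the replicate block, 437 with the number range as a term, 16 within 1 range, 251 in females only and 383 at 0.01. Calls at 20 mg/kg numbered 171, against 0 with the replicate block, 52 with the number range as a term, 2 in females only and 577 with array weights. Between the doses they numbered 1752, against 0 with the replicate block or the number range as a term and 405 in females only, and for both doses 215, against 712 with the number range as a term and 12 in females only. Leaving out 1 array gave 456 (without replicate 4 at 30 mg/kg) to 1563 at 30 mg/kg, 22 (without replicate 7 at 20 mg/kg) to 470 (without control replicate 5) at 20 mg/kg, 321 (without replicate 4 at 30 mg/kg) to 2172 between the doses and 46 (without control replicate 7) to 249 for both doses, so the shares of all genes given beside the counts move with single arrays, from 3.14 to 10.8% at 30 mg/kg.

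Signs turned as follows, with no turned value past the threshold. For 20 mg/kg, C1qa was -0.34 with the replicate block, -0.40 with the number range as a term, -0.34 within a range and -0.33 there without sex, C1qc was 0.047 within a range without sex, and Cd14 was 0.089 in females only and -0.253 to 0.102 on leaving out 1 array. For 30 mg/kg, Mrc1 was -0.007 with array weights and -0.04 to 0.256 on leaving out 1 array, and Cd14 was -0.56 without replicates 3 and 4. Between the doses, the replicate block gave 0.071 for Mrc1, 0.225 for Aif1 and 0.341 for Tyrobp, the number range as a term gave 0.04 for Mrc1, 0.47 for Aif1 and 0.034 for Tyrobp, and leaving out replicates 3 and 4 gave -0.084 for Cd68 and -0.47 for Cd14. Leaving out 1 array gave -0.051 to 0.328 for Cd68 and -0.414 to 0.017 for Tyrobp. For both doses, females only gave 0.092 for C1qa and 0.026 for C1qb, array weights gave 0.072 for C1qb and -0.073 for Cd14, the replicate block gave -0.175 and the number range as a term -0.069 for Cd163, and leaving out replicates 3 and 4 gave -0.211 for Cd14. Leaving out 1 array gave -0.131 to 0.007 for C1qb, -0.02 to 0.223 for Cd163 and -0.016 to 0.376 for Cd14. Of the other values for single genes, 1058 kept direction and side of the threshold, 90 lost a call and 10 gained 1. The cause of these changes was not tested. The subsets also hold fewer arrays.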
